A study of Mus musculus with 6 samples.

Results

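The genes described here are 47 DNA repair and damage response genes of the mouse, taken from a list of names with no threshold on their values. They cover homologous recombination, the MRN complex, end joining of broken DNA, the Fanconi anaemia pathway, the checkpoint kinases, base excision and single-strand break repair, mismatch repair and nucleotide excision repair, so they reach beyond recombination. In the array annotation 46 of the 47 had a probe set of their own, of 18194 named genes in all, and Xrcc2 was not analysed here. Each gene was read from its brightest probe set (by its average on the 6 arrays), and 45 of the 46 reached a log2 value of 4 on at least 3 arrays and were tested. Bard1, the partner of Brca1 in its ubiquitin ligase, was too dim, at 2.69, 2.75 and 3.13 on the rNCSC arrays and 2.19, 2.31 and 2.29 on the pNCSC arrays.

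Expression was measured in neurospheres, floating spheres of dividing cells, from C57BL/6J mice. The rNCSC group (3 arrays) came from dorsal root ganglia, where sensory neurons of the body lie, at embryonic day 12.5, and is described in the labels as reprogrammed in culture so that it can form progeny of the central nervous system. The pNCSC group (3 arrays) came from the palate of mice aged 6 to 8 weeks, dissected from 3 to 5 mice. Both were grown without serum in DMEM/F12 with heparin at 0.5 U/ml, EGF at 20 ng/ml, bFGF at 20 or 40 ng/ml, N2 and B27 at 1% or 3%, with no statement of which culture had which level, and were harvested at passage 3. The labels do not state that replicate arrays stand for separate cultures or animals. A p-value here therefore covers the spread among these samples, which may be technical. The groups differ in tissue, age and culture at once, and these cannot be told apart.

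Values were deposited as log2 expression after GCRMA. Array medians lay between 4.01 and 4.04, and arrays of a group correlated at r = 0.988 to 0.996 against 0.833 to 0.844 between groups. The central nervous system progenitor markers fixed for the label check (Sox2, Nes, Olig2, Pax6, Fabp7, Sox1 and Sox3) reached 4 on all rNCSC arrays in 7 of 7 cases and on all pNCSC arrays in 3 of 7, where the labels speak of none being induced. Mesenchyme and fibroblast markers summed to log2 values of 15.66 to 16.07 in pNCSC and 6.73 to 9.13 in rNCSC. The neural crest genes Sox10 and Ngfr were under 4 on all rNCSC arrays, and at 4.43 to 5.44 (Sox10) and 6.22 to 8.55 (Ngfr) in pNCSC. Leukocyte markers summed to 10.19 to 11.63 in pNCSC (3 of 7 at 4 or more on all arrays, but Ptprc, the common leukocyte antigen, at 2.54 to 2.71) and 5.83 to 5.93 in rNCSC, and mast cell markers to 7.33 to 12.17 in pNCSC and 5.81 to 6.58 in rNCSC. Epithelial and endothelial markers summed to 6.77 to 7.92 and 6.78 to 8.45 in pNCSC, and to 6.01 to 6.05 and 5.21 to 5.24 in rNCSC. Of 5 endothelial markers only Flt1 reached 4 on all pNCSC arrays, and Pecam1, Cdh5, Kdr and Tek were under 4 on all arrays. The epithelial genes Krt14, Krt8 and Cdh1 were also under 4 on all arrays. Sensory neuron markers summed to 10.24 to 11.34 in rNCSC and 6.05 to 6.13 in pNCSC, through Elavl4 and Neurod1, while Isl1 was under 4 on all arrays, Pou4f1 was too dim to test and Prph overlapped between the groups. The part of these other cells in the results below was not tested, and in such bulk RNA fewer cells of a type and less RNA per cell cannot be told apart.

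Cells mend DNA breaks either by copying an intact sister sequence, which is homologous recombination and needs a replicated chromosome, or by rejoining the ends directly. Damaged bases, mispaired bases and bulky lesions are cut out by the base excision, mismatch and nucleotide excision pathways, while the kinases ATM and ATR detect breaks and stalled forks and signal through CHK2 and CHK1 to halt the cell cycle. Many recombination genes are transcribed by E2F factors as cells enter S phase, so their transcripts are known to rise in dividing cells, whereas end joining and nucleotide excision serve resting cells as well.

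Most of these repair genes were higher in rNCSC. Of the 45 tested, 36 (80.0%) were higher in rNCSC, where the background over all 11722 genes tested was 40.2%, and 1 (2.22%) was lower, where the background was 33.1% (limma, Benjamini-Hochberg adjusted p under 0.05). In either direction 37 of 45 were called, against 73.3% of all genes. The other 8 did not pass the test. By size, 27 of the 45 were called and at least 2-fold higher, against 24.4% of all genes, and the greatest fall was a log2 difference of -0.92. The groups did not overlap in 42 of 45 genes (78.2% of all genes), with rNCSC above in 40 (43% of all genes) and pNCSC above in 2 (35.2% of all genes). The median log2 difference, rNCSC minus pNCSC, was 1.42 (2.67-fold), against 0.12 over all genes tested. Of the 45, 7 passed the filter only through rNCSC and so had to differ. Without the filter the median over all 46 genes was 1.34, against 0.01 over all named genes, and the rNCSC mean was the higher in 43 of 46.

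**Figure D1:**
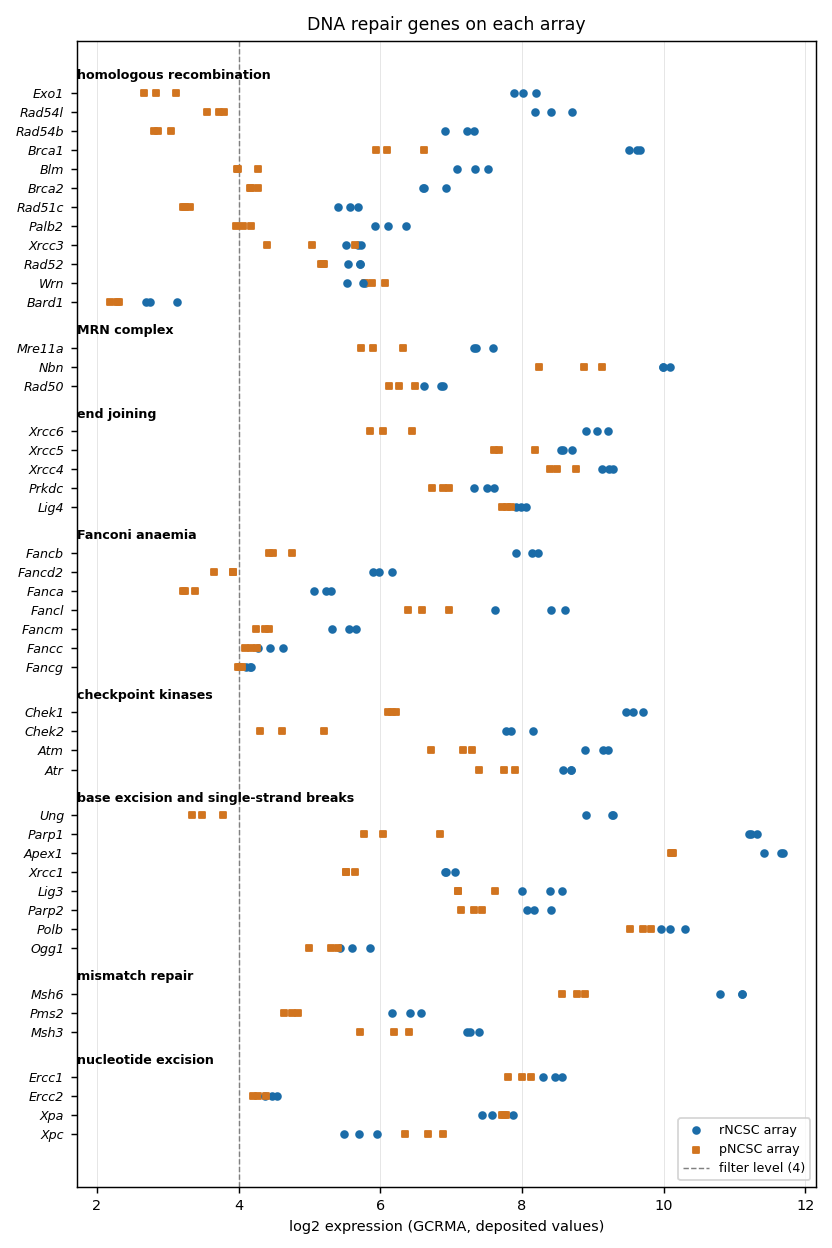
Log2 expression (x axis) of the 46 repair genes (y axis, by pathway) on each of the 3 rNCSC arrays (circles) and 3 pNCSC arrays (squares), with the filter level of 4 dashed. The rNCSC circles lie wholly to the right of the pNCSC squares in 40 of the 45 genes tested, and wholly to the left for Wrn and Xpc.

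Because many of these genes moved together, promoter windows from RefSeq (GRCm38.p6; 250 bases before to 50 after the start site) were searched for words known from S-phase and mitosis promoters. Of the 47 genes, 37 had a window. The E2F words searched, on either strand, were TTCCCGC and its variant TTCGCGC, beside TTGCCGC and its variant TTGGCGC. They stood in windows of 21 of the 37 genes (56.8%), against 19.9% of the tested genes with a window and 10.9% of all genes in the table. Among S phase genes 13 of 19 (68.4%) held such a word and among mitosis genes 3 of 20 (15.0%). The CHR word TTTGAA, known from mitosis promoters, stood in 1 of 37 repair genes (2.7%), Bard1, against 15 of 20 mitosis genes (75.0%) and 13.9% of the tested genes. CCAAT stood in 21 of 37 (56.8%), against 43.2% of the tested genes. Median GC content was 60.2% over the repair windows and 61.0% over those of tested genes. These are exact matches, not measured binding, and no test was made.

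The windows below belong to Fancb, Chek1 and Brca1, the 3 repair genes furthest towards rNCSC that hold an E2F word, and to Xpa, the gene furthest towards pNCSC with a window, which holds none. The windows do not sort the genes by difference: Ung, Parp1 and Rad54l lay further towards rNCSC and hold no E2F word. Of the 7 genes not called or lower that have a window, 3 (42.9%) hold one. The windows below are printed on the gene's own strand with matches to the E2F words (read here on the other strand) and to CCAAT in capitals. They lie at chrX:164980342-164980641 (plus strand), chr9:36726609-36726908 (minus), chr11:101551906-101552205 (minus) and chr4:46196262-46196561 (minus). Counted from the start site, the E2F word began at base -172 in Fancb, 44 in Chek1 and 22 in Brca1.
Fancb: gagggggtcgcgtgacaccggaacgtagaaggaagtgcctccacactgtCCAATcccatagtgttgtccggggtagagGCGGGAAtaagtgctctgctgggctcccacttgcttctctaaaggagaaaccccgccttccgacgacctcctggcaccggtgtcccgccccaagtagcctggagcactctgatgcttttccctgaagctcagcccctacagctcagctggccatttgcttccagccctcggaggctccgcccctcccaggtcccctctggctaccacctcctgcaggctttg
Chek1: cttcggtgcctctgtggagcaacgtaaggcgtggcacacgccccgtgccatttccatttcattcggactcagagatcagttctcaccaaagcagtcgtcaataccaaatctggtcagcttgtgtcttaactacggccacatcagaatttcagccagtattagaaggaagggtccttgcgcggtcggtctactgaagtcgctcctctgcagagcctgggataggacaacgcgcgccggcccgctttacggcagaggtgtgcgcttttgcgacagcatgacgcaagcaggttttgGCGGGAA
Brca1: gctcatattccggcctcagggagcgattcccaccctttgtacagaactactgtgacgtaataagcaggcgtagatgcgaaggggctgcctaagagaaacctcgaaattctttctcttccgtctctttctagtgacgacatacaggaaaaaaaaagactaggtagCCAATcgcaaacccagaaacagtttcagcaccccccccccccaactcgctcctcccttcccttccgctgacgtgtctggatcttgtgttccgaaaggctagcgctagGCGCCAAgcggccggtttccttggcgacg
Xpa: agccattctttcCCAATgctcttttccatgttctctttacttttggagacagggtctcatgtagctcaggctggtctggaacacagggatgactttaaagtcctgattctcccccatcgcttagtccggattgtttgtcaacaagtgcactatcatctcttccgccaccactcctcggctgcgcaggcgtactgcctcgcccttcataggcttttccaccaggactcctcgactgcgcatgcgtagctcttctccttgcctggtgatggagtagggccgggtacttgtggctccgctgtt

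Recombination genes held some of the widest differences. Of 11 tested genes 9 were higher in rNCSC, against 40.2% of all genes, with a median log2 difference of 2.51 (5.70-fold). Xrcc3 and Wrn did not pass the test. Of the 9, 4 passed the filter only through rNCSC and so had to be higher there: Exo1, Rad54l, Rad54b and Rad51c. Exo1, the exonuclease that resects DNA ends, had log2 values of 8.02, 7.89 and 8.20 on the rNCSC arrays and 3.12, 2.84 and 2.66 on the pNCSC arrays. All rNCSC arrays were high and all pNCSC arrays lay under 4, so its fold is a lower bound, at least 16.4-fold (limma adjusted p = 6.0e-07). A second Exo1 probe set gave a smaller log2 difference, 2.69.

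The RAD54 motor proteins, which help a broken strand invade the sister sequence, followed. Rad54l was at 8.41, 8.18 and 8.71 in rNCSC and 3.72, 3.79 and 3.55 in pNCSC. Rad54b was at 6.92, 7.32 and 7.23 in rNCSC and 3.04, 2.81 and 2.86 in pNCSC. Both were far apart between the groups and under 4 on every pNCSC array, and the rNCSC excess was at least 21.6-fold for Rad54l (limma adjusted p = 9.8e-07) and at least 8.92-fold for Rad54b (9.6e-07). Other Rad54l probe sets gave log2 differences of 3.51 and 4.13 against 4.74.

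The BRCA genes, tumour suppressors needed for this repair, were also higher. Brca1, at 9.67, 9.51 and 9.62 in rNCSC and 5.94, 6.62 and 6.10 in pNCSC, was 10.4-fold higher (log2 difference 3.38, SE 0.19, limma adjusted p = 8.5e-06). Its other probe sets past the filter were dimmer and gave log2 differences of 1.29 and 1.54. Brca2 was 5.70-fold higher, and Palb2, which joins the BRCA proteins, at least 4.14-fold higher. The Bloom helicase gene Blm was at least 9.28-fold higher, with pNCSC values of 3.98, 4.28 and 3.99. Rad51c, which acts in strand exchange, was at 5.40, 5.68 and 5.57 in rNCSC and 3.32, 3.22 and 3.24 in pNCSC, a rise of at least 2.92-fold (adjusted p = 5.8e-06).

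Other recombination genes differed little. The annealing protein gene Rad52 rose 1.39-fold in rNCSC (log2 difference 0.47, SE 0.11, limma adjusted p = 0.0065). Xrcc3, which forms a complex with the Rad51c protein, was at 5.73, 5.69 and 5.52 in rNCSC and 4.40, 5.64 and 5.03 in pNCSC. Its groups overlapped through pNCSC replicate 2, and the log2 difference of 0.62 (95% interval -0.10 to 1.34) did not pass the test (adjusted p = 0.10). Without that array the difference was 0.93 and passed (adjusted p = 0.012). Wrn, the Werner syndrome helicase, was at 5.53, 5.78 and 5.75 in rNCSC and 6.06, 5.79 and 5.89 in pNCSC, the reverse order without overlap, but its log2 difference of -0.22 (95% interval -0.54 to 0.09) did not pass (adjusted p = 0.16).

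All 3 genes of the MRN complex were higher in rNCSC, against 40.2% of all genes, with a median log2 difference of 1.27. The complex binds broken ends and activates ATM. Its nuclease gene Mre11a was at 7.32, 7.35 and 7.59 in rNCSC and 6.32, 5.73 and 5.90 in pNCSC, 2.70-fold higher (log2 difference 1.43, SE 0.18, limma adjusted p = 0.00039). Nbn, its adaptor to ATM, was 2.42-fold higher (adjusted p = 0.0021). Rad50, the coiled-coil subunit that tethers ends, was 1.41-fold higher (adjusted p = 0.018), and that call was lost without rNCSC replicate 2 or 3 or pNCSC replicate 3 (adjusted p = 0.053, 0.061 and 0.065).

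Of 5 end joining genes 4 were higher in rNCSC, against 40.2% of all genes, and the median log2 difference was 0.66. Xrcc6, which encodes the Ku70 subunit of the end-binding Ku dimer, was at 9.22, 9.06 and 8.90 in rNCSC and 6.45, 5.85 and 6.04 in pNCSC. It stood well apart, 7.72-fold higher (log2 difference 2.95, SE 0.18, limma adjusted p = 1.4e-05). Its dimer partner Xrcc5 (Ku80) was 1.73-fold higher, Prkdc, the DNA-dependent protein kinase catalytic subunit, 1.54-fold, and Xrcc4, the ligase cofactor, 1.58-fold (adjusted p = 0.0056, 0.0043 and 0.0035). Lig4, the ligase itself, was at 8.05, 7.91 and 7.98 in rNCSC and 7.72, 7.85 and 7.79 in pNCSC. The groups lay side by side without overlap, and the log2 difference of 0.19 (95% interval -0.06 to 0.45) did not pass (adjusted p = 0.14).

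In the Fanconi anaemia pathway, which unhooks crosslinked strands, 5 of 7 genes were higher in rNCSC, against 40.2% of all genes. The median log2 difference of the 7 was 1.56. Fancb, a subunit of the core ubiquitin ligase, was at 8.23, 7.92 and 8.14 in rNCSC and 4.49, 4.43 and 4.76 in pNCSC, 11.6-fold higher (limma adjusted p = 1.9e-06). A dimmer Fancb probe set gave a log2 difference of 1.65 against 3.54. Fancd2, which the core complex ubiquitinates, was at 5.90, 5.98 and 6.17 in rNCSC and 3.66, 3.92 and 3.92 in pNCSC, a rise of at least 4.05-fold (adjusted p = 1.2e-05). Another core gene, Fanca, was at 5.23, 5.07 and 5.30 in rNCSC and 3.38, 3.24 and 3.21 in pNCSC, a rise of at least 2.30-fold (adjusted p = 1.2e-05). Both were under 4 on every pNCSC array and so passed the filter only through rNCSC. The other Fancd2 probe sets past the filter gave log2 differences of 2.30 and, for the dimmest, 0.46, against 2.19. Fancl, the catalytic ligase subunit, was 2.96-fold and the helicase-like Fancm 2.23-fold higher (adjusted p = 0.0024 and 0.00023).

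The core subunit genes Fancc and Fancg did not pass the test, and both were close to the filter level. Fancc was at 4.28, 4.44 and 4.63 in rNCSC and 4.17, 4.09 and 4.26 in pNCSC (log2 difference 0.28, 95% interval -0.03 to 0.59, limma adjusted p = 0.093). Fancg was at 4.11, 4.17 and 4.16 in rNCSC and 4.05, 3.99 and 4.02 in pNCSC (0.13, 95% interval -0.11 to 0.37, adjusted p = 0.27). The groups did not overlap in either gene. A dimmer Fancc probe set, at 4.01, 4.09 and 4.19 in rNCSC and 3.39, 3.60 and 3.57 in pNCSC, was called higher (0.58, limma adjusted p = 0.0033). Another, at 3.72, 3.68 and 3.63 in rNCSC and 3.92, 3.85 and 4.12 in pNCSC, was too dim to test and gave -0.28.

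All 4 checkpoint kinase genes were higher in rNCSC, against 40.2% of all genes. Chek1, the effector kinase of the ATR branch, was at 9.71, 9.47 and 9.57 in rNCSC and 6.11, 6.17 and 6.22 in pNCSC, 10.7-fold higher (log2 difference 3.41, SE 0.11, limma adjusted p = 8.6e-07). A second bright Chek1 probe set gave 4.39 and a dimmer one 2.16. Chek2, the effector of the ATM branch, was 9.31-fold higher (adjusted p = 3.5e-05). Of the sensor kinases, Atm was 4.05-fold (adjusted p = 8.3e-05) and Atr 1.96-fold higher (adjusted p = 0.0012), with a second Atr probe set at a log2 difference of 1.88 against 0.97.

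Base excision and single-strand break repair held the gene furthest towards rNCSC. Ung, the glycosylase that removes uracil from DNA, was at 9.28, 8.90 and 9.27 in rNCSC and 3.78, 3.35 and 3.49 in pNCSC. Every pNCSC array was under 4, so the gene was at least 35.5-fold higher in rNCSC (limma adjusted p = 5.9e-07). Parp1, the polymerase that marks strand breaks with poly(ADP-ribose), was at 11.21, 11.23 and 11.31 in rNCSC and 6.84, 6.04 and 5.77 in pNCSC. Its rNCSC arrays were tightly placed and its pNCSC arrays spread, and it was 32.8-fold higher (log2 difference 5.04, SE 0.27, adjusted p = 6.8e-06). The 3 other Parp1 probe sets gave log2 differences of 2.24, 3.50 and 4.41.

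Most other genes of that pathway also rose. Parp2, which acts beside PARP1, was 1.88-fold higher in rNCSC, the scaffold gene Xrcc1 2.67-fold, the abasic endonuclease gene Apex1 2.76-fold and the ligase gene Lig3 2.07-fold (limma adjusted p = 0.0011, 3.7e-05, 4.5e-05 and 0.0036). A dim Lig3 probe set was called the other way (-0.61, adjusted p = 0.0020 over all probe sets), the only such case among 21 repair genes with several probe sets past the filter. Polb, the gap-filling polymerase, was 1.35-fold higher (adjusted p = 0.030), a call that needed each of 4 arrays (adjusted p = 0.097 and 0.061 when rNCSC replicate 1 or 2 was dropped, 0.086 and 0.069 when pNCSC replicate 2 or 3 was dropped). Its other probe sets gave 0.51, 0.91 and 2.68, each called higher (limma adjusted p = 0.011, 0.0017 and 4.4e-06 over all probe sets). The last of them passed the filter only through rNCSC. Ogg1, the glycosylase for oxidised guanine, was at 5.60, 5.86 and 5.43 in rNCSC and 4.99, 5.31 and 5.41 in pNCSC. The groups nearly touched, and the log2 difference of 0.40 (95% interval -0.01 to 0.80) did not pass (adjusted p = 0.073).

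The 3 mismatch repair genes were higher in rNCSC by 2.28-fold to 4.79-fold, where 40.2% of all genes were called higher. Msh6, which detects mispaired bases, was at 11.11, 10.80 and 11.11 in rNCSC and 8.89, 8.57 and 8.78 in pNCSC (log2 difference 2.26, SE 0.15, limma adjusted p = 1.6e-05). Pms2, the endonuclease subunit that nicks the new strand, was 3.13-fold and Msh3, which detects larger loops, 2.28-fold higher (adjusted p = 6.0e-05 and 0.0013). A dimmer Pms2 probe set gave a log2 difference of 0.37 against 1.65.

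Nucleotide excision repair had the smallest median log2 difference of the 8 pathways, 0.03. Xpc, the lesion sensor of global genome repair, was the 1 repair gene lower in rNCSC. It was at 5.70, 5.49 and 5.95 in rNCSC and 6.35, 6.67 and 6.88 in pNCSC, without overlap, 1.90-fold lower in rNCSC (log2 difference -0.92, SE 0.19, limma adjusted p = 0.0037). Xpa, a scaffold of the incision complex, was at 7.88, 7.44 and 7.57 in rNCSC and 7.72, 7.75 and 7.77 in pNCSC. Those groups overlapped, and the log2 difference was -0.11 (95% interval -0.45 to 0.22, adjusted p = 0.49).

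The helicase gene Ercc2 was at 4.47, 4.38 and 4.54 in rNCSC and 4.28, 4.39 and 4.20 in pNCSC, overlapping near the filter level (0.18, 95% interval -0.09 to 0.45, limma adjusted p = 0.20). Ercc1, a subunit of the incision nuclease, was at 8.47, 8.30 and 8.56 in rNCSC and 8.13, 8.00 and 7.80 in pNCSC, 1.38-fold higher (adjusted p = 0.018). Its call was not stable. A second, equally bright probe set gave -0.05 (adjusted p = 0.76), and the call was lost without rNCSC replicate 1 or 3 or pNCSC replicate 3 (adjusted p = 0.053, 0.061 and 0.064).

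**Figure D2:**
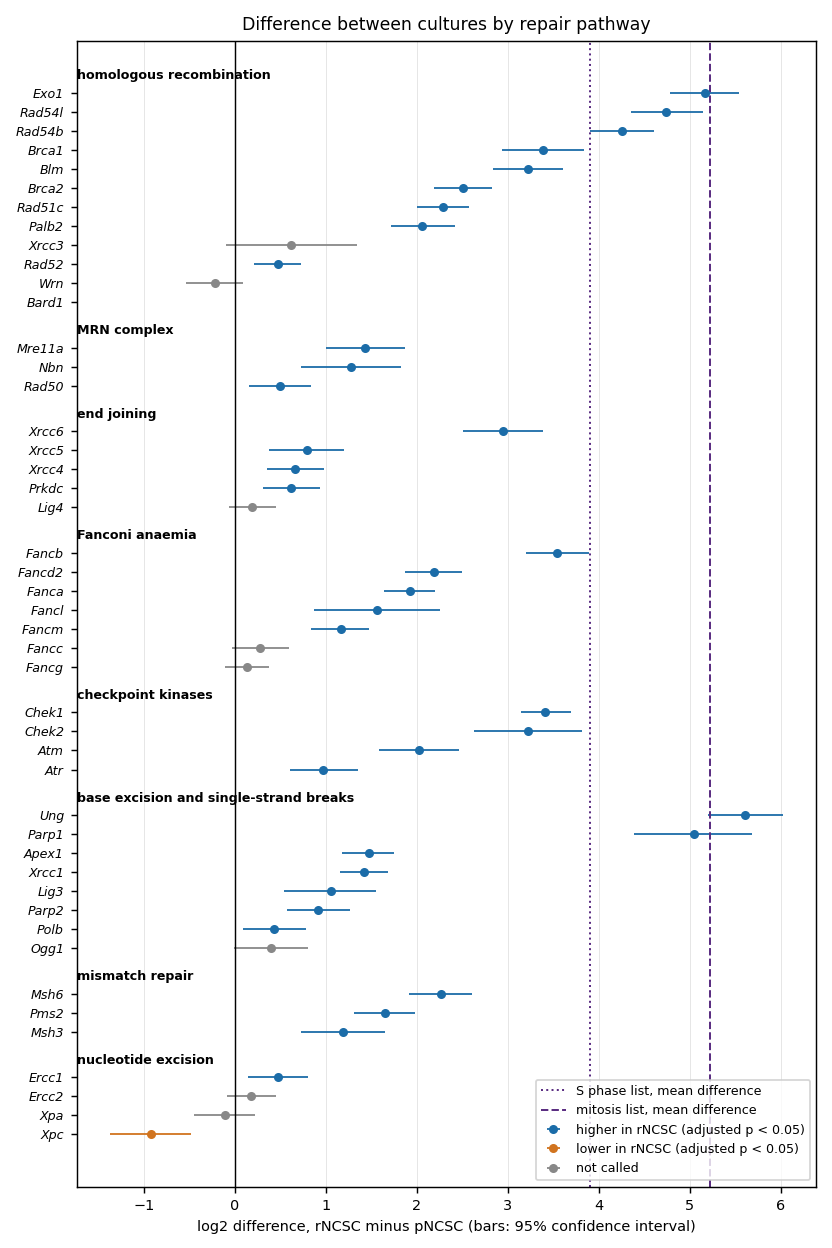
Log2 difference, rNCSC minus pNCSC (x axis, with 95% confidence intervals from limma), of the repair genes by pathway (y axis), coloured by call, with the mean difference of the S phase list (dotted, 3.90) and of the mitosis list (dashed, 5.22). Ung, Exo1 and Parp1 lie furthest right, nucleotide excision genes lie around 0, and Bard1 was too dim to test.

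To see which repair genes did not follow proliferation, they were set beside 47 S phase and mitosis genes, none of them a repair gene of this set. All 47 were at least 2-fold higher in rNCSC (limma), with median log2 differences of 4.01 for 23 S phase genes such as Mcm2 and Pcna and 5.24 for 24 mitosis genes such as Bub1 and Kif11. Their mean level over both lists was 10.55, 10.48 and 10.60 on the rNCSC arrays and 6.17, 5.96 and 5.77 on the pNCSC arrays. By direction, 36 repair genes followed, that is were called higher (80.0%, against 40.2% of all genes). Of the other 9, Xpc was lower. Xrcc3, Wrn, Lig4, Fancc, Fancg, Ogg1, Ercc2 and Xpa were not called, so they were not shown to follow. The split rests on the test: Xrcc3 (0.62) differed by more than Rad52 (0.47), Rad50 (0.5), Ercc1 (0.47) and Polb (0.43), which were called. Some of these 9 depend on the probe set or weighting: dimmer probe sets of Xrcc3 (0.49, adjusted p = 0.027) and Fancc (0.58, adjusted p = 0.0033) were called higher, as were Xrcc3 by the mean of its probe sets (adjusted p = 0.033) and, with array weights, Xrcc3 and Ercc2 (adjusted p = 0.025 and 0.037). Another Fancc probe set, too dim to test, gave -0.28. Among the 36, Ercc1, Rad50 and Polb lost their calls in 5, 4 and 4 alternative settings, though the other Polb probe sets were each called higher.

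By size, few repair genes reached the mean of the proliferation lists. Each gene was tested again after the array's mean over the 47 genes had been subtracted, which asks whether it differed by another amount than they did. Of the 45 repair genes 40 fell below that mean, where 95.9% of all genes did, so this count says nothing particular of repair genes. The 5 not called below (11.1%, against 4.15% of all genes) were Ung and Exo1, by measured values above the mean by 1.03 and 0.58 (adjusted p = 0.00038 and 0.0060, limma), and Rad54l, Rad54b and Parp1, which did not differ from it beyond their error (0.16, -0.33 and 0.46, adjusted p = 0.40, 0.12 and 0.064). Of all genes 2.02% were above. Of the 47 S phase and mitosis genes themselves, 14 were below their own mean, 12 of them S phase genes. The log2 differences of the 23 S phase genes ran from 1.42 to 6.00. A repair gene below the mean, such as Brca1 (3.38), can thus lie within their range. Ung, Exo1, Rad54l and Rad54b were under 4 in pNCSC. With those arrays set to 4 their log2 differences were at least 5.15, 4.04, 4.43 and 3.16, against the mean of 4.58. Only the bound of Ung exceeds that mean. For Exo1 the excess rests on pNCSC values under 4, and its second probe set (2.69) lies below the mean. Against the S phase list alone Ung, Exo1, Parp1 and Rad54l were above and Rad54b and Fancb not called. Against the mitosis list alone Ung, Exo1, Parp1 and Rad54l were not called and the other 41 were below.

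The tested repair genes known as S-phase genes were all higher in rNCSC, against 40.2% of all genes. The 9 tested (Brca1, Brca2, Rad54l, Exo1, Blm, Chek1, Fancd2, Msh6 and Ung) had log2 differences from 2.19 to 5.61 with a median of 3.38 (limma). Of these 9, Rad54l, Exo1, Fancd2 and Ung passed the filter only through rNCSC and so had to be higher there. Their differences use measured pNCSC values under 4. The 36 repair genes outside that list ran from -0.92 to 5.04 with a median of 1.01, 27 higher and 1 lower. Of these 36, 3 passed the filter only through rNCSC. Parp1, Rad54b, Fancb, Chek2 and Xrcc6 of this second set had differences from 2.95 to 5.04, within the range of the first. The list was drawn up with earlier results of these data known, and the difference between the sets was not tested.

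**Figure D3:**
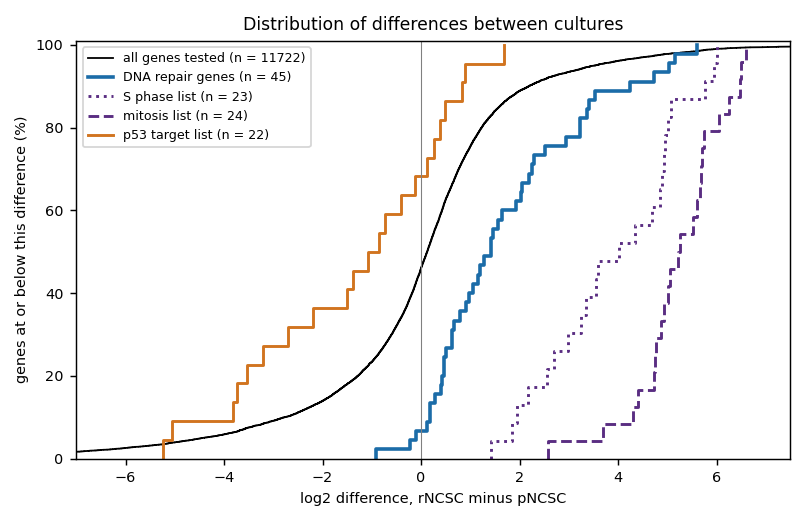
Cumulative share of genes (y axis, %) at or below each log2 difference, rNCSC minus pNCSC (x axis), for all genes tested and 4 lists. The 45 repair genes (median 1.42) lie between all genes (0.12) and the S phase (4.01) and mitosis (5.24) lists, and the p53 target list (-0.96) lies to the left of all genes.

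Further repair genes came from lists written for this comparison. They cover the same pathways and also 13 tested genes of translesion synthesis and damage reversal, described at the end. Of all 91 tested, 56 were higher (61.5%) and 13 lower (14.3%) in rNCSC, against 40.2% and 33.1% of all genes. Their median was 0.67 against 0.12. Of 19 further recombination genes 17 were higher, 4 of which passed the filter only through rNCSC, and the median was 1.33. Rad51ap1, which stimulates strand exchange, was 56.6-fold and Rpa2, a subunit of the single-strand binding protein RPA, 13.6-fold higher (limma adjusted p = 5.2e-07 and 8.5e-07). Of 16 further checkpoint and damage signalling genes 12 were higher, including H2afx, the histone variant phosphorylated at breaks (18.1-fold), and Clspn, the CHK1 adaptor claspin (15.5-fold), and 1 was lower, Rad9a (1.54-fold, adjusted p = 0.0032).

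Of 8 further Fanconi genes 3 were higher (37.5%, near the 40.2% of all genes) and 5 were not called. The conjugating enzyme gene Ube2t was 26.5-fold and Fanci at least 4.69-fold higher (limma adjusted p = 1.6e-05 and 3.3e-06). Fanci passed the filter only through rNCSC and so had to be higher there. Of 14 further base excision genes 10 were higher, among them the DNA ligase gene Lig1 (18.8-fold) and the flap endonuclease gene Fen1 (8.85-fold), both also replication genes. The 2 lower ones were large: Parp3 was at 3.78, 5.46 and 4.78 in rNCSC and 11.00, 10.70 and 10.73 in pNCSC, at least 66.9-fold lower (adjusted p = 1.7e-05). Mpg, the alkyladenine glycosylase, was at 5.39, 4.33 and 4.10 in rNCSC and 7.73, 8.47 and 8.23 in pNCSC, 11.6-fold lower (adjusted p = 0.00014).

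The nucleotide excision and mismatch repair lists held genes of either direction. Of 14 further nucleotide excision genes 6 were higher, led by Gtf2h4 (2.25-fold) and Ercc8 (2.22-fold), and 4 lower, led by Mms19 (2.40-fold) and Ercc5 (1.71-fold), with a median of -0.01. These shares (42.9% and 28.6%) were near those of all genes (40.2% and 33.1%). Of 5 further end joining genes Poll was 1.31-fold higher and Polm at least 1.21-fold lower (limma adjusted p = 0.015 and 0.0038). Polm passed the filter only through pNCSC and so had to be lower in rNCSC. Of 2 further mismatch repair genes Pms1 was 5.34-fold higher (adjusted p = 4.5e-06) and Mlh3 1.42-fold lower (adjusted p = 0.042).

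Target genes of p53, the transcription factor that damage kinases activate, were mostly lower in rNCSC. Of 22 tested on that list, 14 were lower and 5 higher in rNCSC (limma), against 33.1% and 40.2% of all genes. At least 2-fold lower were 11, against 23% of all genes. Of the 22, 2 passed the filter only through pNCSC, Perp and Tnfrsf10b, and so had to be lower in rNCSC. Cdkn1a, the cyclin-dependent kinase inhibitor p21, was at 8.92, 8.67 and 9.45 in rNCSC and 11.74, 12.57 and 12.30 in pNCSC, 9.16-fold lower (adjusted p = 6.5e-05). Mdm2, the ubiquitin ligase that degrades p53, was at 7.72, 7.89 and 8.04 in rNCSC and 10.31, 10.83 and 10.65 in pNCSC, 6.55-fold lower (adjusted p = 1.4e-05). In both genes all pNCSC arrays lay above all rNCSC arrays. The death receptor gene Fas was at least 36.0-fold lower. Perp, also known from epithelia, was at 3.98, 3.37 and 3.40 in rNCSC and 6.42, 9.80 and 9.69 in pNCSC, lower in rNCSC (adjusted p = 0.0019) but widely spread in pNCSC. Those higher included Sesn1 (3.22-fold) and Gadd45g (1.87-fold). Xpc, lower in rNCSC among the repair genes, is also known as a p53 target. So is the polymerase gene Polk, which was 4.01-fold lower (limma adjusted p = 0.00017) and was added after its values were seen. Repair genes known as p53 targets were not listed as a set, and a part of p53 in these differences was not tested.

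**Figure D4:**
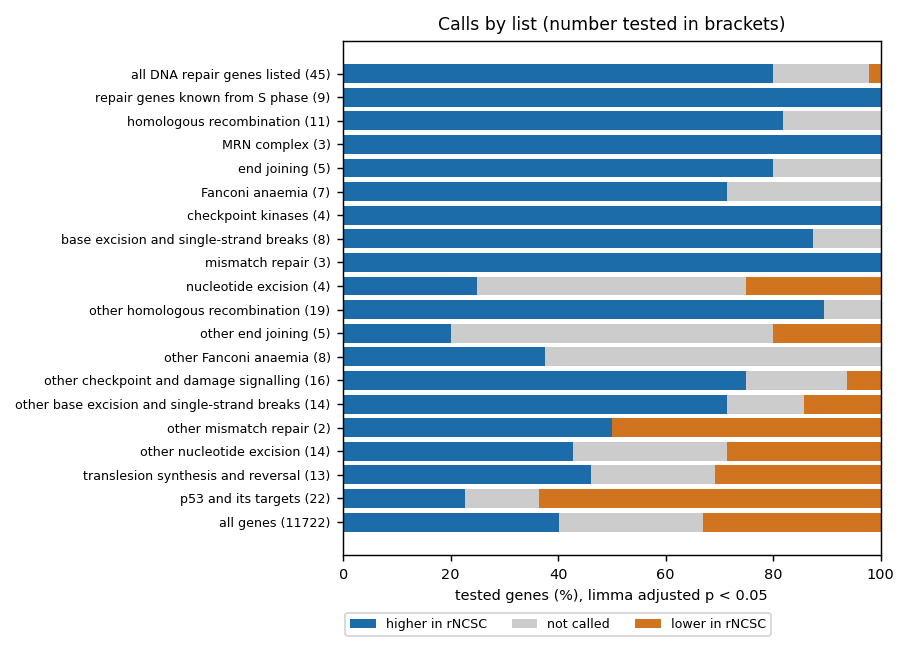
Share of tested genes (x axis, %) called higher in rNCSC, not called or called lower in rNCSC (limma adjusted p under 0.05) in each list (y axis, number tested in brackets). The recombination and checkpoint lists are mostly higher in rNCSC, the nucleotide excision lists are mixed, and 14 of 22 genes of the p53 list are lower.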

How the data were processed

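The authors deposited 1 table of log2 values for 45101 probe sets on 6 Affymetrix mouse arrays of 1 design. Per the labels' protocols, biotinylated cRNA was made from 500 ng of total RNA, and the submitters' processing notes name GCRMA, which corrects background by probe sequence and normalizes by quantiles. Its version and settings are not given in the sources used here. The log2 scale was read from the values (1.22 to 15.58). Quantile normalization hides a shift of most genes, and weak probe sets are compressed. Precision is limited by 3 arrays a group.

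Probe sets were named by the platform annotation (34958 with 1 symbol, 932 with several and left out, 9211 unnamed here); a RefSeq table (GRCm38.p6) changed 0 symbols. 1 probe set per gene (highest mean) gave 18194 genes, of which 11722 reached 4 on at least 3 arrays. Groups came from the titles. limma 3.58.1 (R 4.3.3; lmFit, eBayes, no covariates, two-sided, Benjamini-Hochberg over all genes tested) gave differences, rNCSC minus pNCSC. With 3 arrays a group, the smallest exact permutation p is 0.1. Where arrays of the lower group were under 4 they were set to 4 and the fold is called "at least"; adjusted p-values are those of the measured values. Simulated data for this comparison held 11722 genes, 11522 of them unshifted. The fit found 4 of 67 genes shifted by a log2 value of 0.5. It found 35 of 67 shifted by 1 and 56 of 66 shifted by 2, and called 6 unshifted genes. In the real data 73.3% of genes were called, which loosens the Benjamini-Hochberg cut-off, so the shares found in the simulation do not carry over.

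The members and lists were chosen with earlier results of these data known. Per-array values are given for the widest member per pathway and direction, members lower or not called, and members under 4 throughout a group; further lists name up to 2 genes per direction, Cdkn1a and Mdm2. Brca1, Parp1, Polk and Rev3l were added after their values were seen. Trp53 was not analysed here.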

Additional observations from a re-analysis of the deposited data

How the results depend on the processing

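Over 18 alternatives (filter, probe set, normalization, variance model, array weights, replicate block, each array left out with the genes kept), the count of repair genes higher in rNCSC ran from 30 to 38 and the count lower was 1 throughout. Without 1 array the counts were 33 to 36 higher, and 2 to 3 above and 40 below the proliferation lists. Of 780 differences of single genes, 761 kept their direction and side of the threshold. The 19 others belong to Ercc1, Rad50, Polb, Xrcc3 and Ercc2. Ercc1 turned to -0.05 on its second probe set. The cause was not tested. The count above the proliferation lists, 2, was 1 when _s_at, _x_at and _a_at probe sets were left out. Ung was then not tested, as its only probe set is an _a_at one. The count was 1 on the second brightest probe set, 4 against the S phase list alone and 0 against the mitosis list alone. Both probe set alternatives test fewer repair genes (40 and 34). For genes under 4 in pNCSC, lower bounds rose with a floor of 3, as for Exo1 (log2 difference from 4.04 to 5.00). The replicate block gave 36 higher and 1 lower, 2 above and 40 below, the same counts, and changed no call of a repair gene. Replicate numbers share nothing but the number: deviations of same-numbered arrays correlated at 0.04, -0.04 and -0.03. Signal near the floor limits Bard1, Fancc, Fancg and Ercc2.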

Other observations

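Translesion polymerases, which copy past damaged bases, and enzymes that reverse damage directly gave 6 genes higher and 4 lower in rNCSC of 13 tested (limma adjusted p under 0.05), with a median log2 difference of 0.28. These shares (46.2% and 30.8%) were near those of all genes (40.2% and 33.1%). Mad2l2 and Rev3l, subunits of polymerase zeta, were 6.88-fold and 5.33-fold higher in rNCSC (adjusted p = 7.3e-06 and 1.2e-05). Rev3l was at 13.07, 13.23 and 13.17 in rNCSC and 10.48, 10.83 and 10.91 in pNCSC, bright and without overlap. Mgmt, which removes alkyl groups from guanine, was at 3.90, 3.52 and 3.59 in rNCSC and 5.74, 6.13 and 6.02 in pNCSC. It was at least 3.89-fold lower in rNCSC (limma adjusted p = 2.4e-05), but passed the filter only through pNCSC and so had to be lower. With Mpg and Alkbh2 (1.84-fold lower, adjusted p = 0.0023), 3 genes for alkylation damage were thus lower in rNCSC, while Alkbh3 did not pass the test (log2 difference 0.16, adjusted p = 0.50). These 4 genes were put side by side after their values were seen.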
